A study of Glycine max with 6 samples.

Results

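The soybean (Glycine max) genes described here, a pair on chromosome 1, were measured in leaves at full bloom. Of these, Glyma01g24530 (probe set 11768538) is similar to the Arabidopsis proline synthesis gene P5CS1 and Glyma01g44930 (probe set 11774350) is similar to the Arabidopsis hexose transporter gene STP13. They are 2 of 66184 probe sets, taken by their Glyma1 identifiers, each with an identifier of its own, on Affymetrix Soybean Gene 1.0 ST arrays. Both were chosen by the measured difference between drought and well-watered leaves on these 6 arrays, so that their own changes are given below as a description and without a test. Total RNA came from the third trifoliate, counted down from the shoot, of plants of the cultivar Williams 82 at the R2 stage. Drought plants went without water for 5 days once they had begun to flower, by which time soil moisture was 5%, and well-watered plants were watered throughout. Each group had 3 plants with an array each, namely plants 1, 3 and 4 of the well-watered and plants 11, 12 and 13 of the drought group. Plants grew 3 to a pot, and the labels do not give the pot of each plant. Plants of one treatment may therefore have shared a pot, and p-values may then reflect no more than variation within pots.

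Proline is made in plants mainly from glutamate. Delta-1-pyrroline-5-carboxylate synthase (P5CS) carries out the first and rate-limiting part of this route, and in Arabidopsis P5CS1 is the copy known for induction by drought, salt and abscisic acid, where proline acts as a compatible solute. STP13 belongs to the sugar transport proteins, which bring glucose and other hexoses into the cell together with protons, and in Arabidopsis it is known as a high-affinity carrier of the plasma membrane that responds to stress. The deposited values are on the log2 scale and centred, for every probe set, on its median of the 6 arrays, so that 1 unit is a 2-fold difference between arrays and levels of different genes cannot be compared. A whole leaf was sampled, and fewer cells of a type and less RNA per cell cannot be told apart in such data.

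The gene similar to P5CS1, Glyma01g24530, was higher in every drought plant than in any well-watered plant, but to an unequal degree. Its log2 values were 0.50 in drought plant 11, 1.57 in drought plant 12 and 1.11 in drought plant 13. In the well-watered plants they were -0.95 for plant 1, -0.50 for plant 3 and -0.89 for plant 4. Drought plant 12 thus stood 5.10-fold above the mean of the well-watered plants, drought plant 13 stood 3.71-fold above it and drought plant 11 only 2.42-fold. The group means were 1.06 ± 0.54 (SD, n = 3) in drought and -0.78 ± 0.25 (SD, n = 3) in well-watered leaves. The difference was 1.84 ± 0.34 on the log2 scale (SE of the difference of means), or 3.58-fold. The nearest plants of the groups, drought plant 11 and well-watered plant 3, lay 1.00 apart on the log2 scale, and the farthest lay 2.52 apart. The pooled SD within the groups was 0.42, larger than that of 90.7% of all probe sets, whose median was 0.24.

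The gene similar to STP13, Glyma01g44930, differed by more between the groups and was more even among the drought plants, though not among the well-watered plants. Its log2 values were 1.54 in drought plant 11, 1.60 in drought plant 12 and 1.75 in drought plant 13. The well-watered plants stood at -1.54 for plant 1, -1.78 for plant 3 and -2.07 for plant 4. The drought plants thus all stood 10.1-fold to 11.7-fold above the mean of the well-watered plants. The group means were 1.63 ± 0.11 (SD, n = 3) in drought and -1.80 ± 0.27 (SD, n = 3) in well-watered leaves, with a difference of 3.42 ± 0.17 (SE) on the log2 scale, or 10.7-fold. Even the nearest pair, drought plant 11 and well-watered plant 1, differed by 3.08 on the log2 scale, or 8.44-fold. The pooled SD within the groups was 0.20, larger than that of 37.3% of all probe sets. The difference between the groups was 16.9 times this SD, against 4.40 times for the P5CS1-like gene. Both genes were chosen by this difference and each SD rests on 3 plants per group, so these ratios are no measure of evidence.

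**Figure D1:**
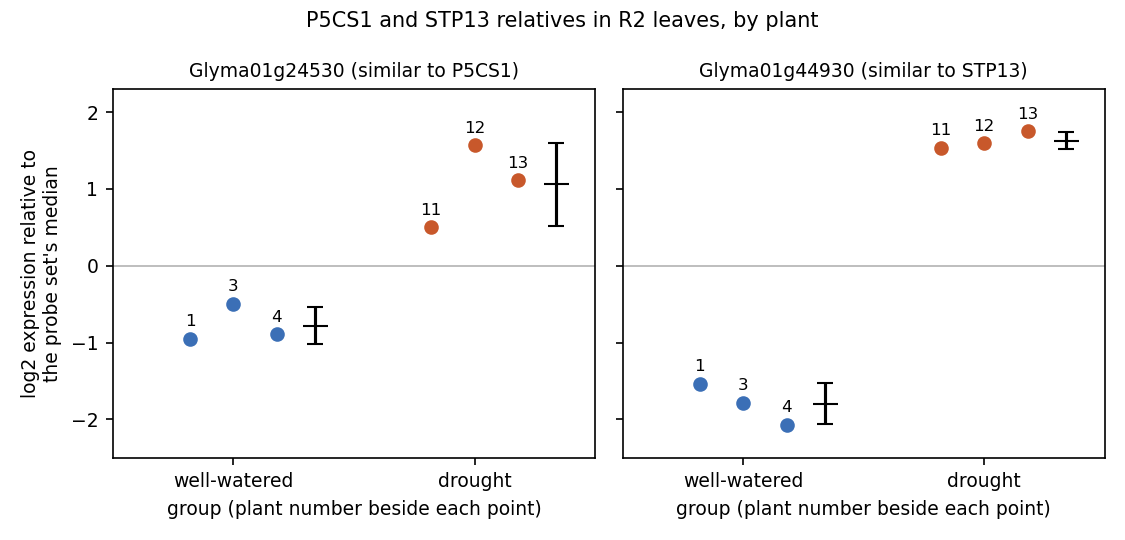
Log2 expression relative to the probe set's median (y axis) of the P5CS1-like gene (left) and the STP13-like gene (right) in each plant, with the group mean and SD in black. The groups do not overlap for either gene, and the drought values of the P5CS1-like gene spread over 1.07 log2 units against 0.21 for the STP13-like gene.

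Across the series 152 probe sets (0.23% of all) had a larger positive difference than the STP13-like gene and 1035 (1.56%) had a larger one than the P5CS1-like gene. Drought values wholly above the well-watered values were found for 18.6% of all probe sets, and wholly below them for 17.4%, so the separation of the groups by itself sets neither gene apart, and it was in view when they were chosen. Because each probe set is centred on its median, the lowest drought value and the highest well-watered value mirror each other where the groups do not overlap, and this symmetry is no property of the genes. No other probe set held the same 6 values as either member. The array of well-watered plant 3 had the highest median of all values, at 0.13, and that of well-watered plant 1 the lowest, at -0.11. With the array medians subtracted, the P5CS1-like gene stood at -0.63 in well-watered plant 3, still the highest of the well-watered plants, and the STP13-like gene at -1.43 in well-watered plant 1, also still the highest.

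By their measured values the genes did not order the plants alike. In well-watered leaves the P5CS1-like gene was highest in plant 3, whereas the STP13-like gene was highest in plant 1. In drought leaves both were lowest in plant 11, but plant 12 was highest for the P5CS1-like gene and plant 13 for the STP13-like gene. The drought values of the STP13-like gene spanned only 0.21, about its pooled SD of 0.20, so their order is uncertain. The well-watered values of the P5CS1-like gene spanned 0.45, near its pooled SD of 0.42, and those of the STP13-like gene spanned 0.53. With a single array for each plant, the order of the well-watered plants is uncertain as well. Among all 3295 genes called higher in drought, as defined below, plant 11 had the lowest drought value for 51.8%, plant 12 for 30.9% and plant 13 for 17.3%, so the place of plant 11 is shared with many other genes. Set side by side, the log2 differences of the P5CS1-like and the STP13-like gene were 1.84 and 3.42, so that the fold of the latter was 3.00 times that of the former.

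To set the members among genes of related roles, lists were drawn from the gene descriptions of the study, which at hand cover mainly chromosome 1. A gene was called when its adjusted p was under 0.05 (limma, Benjamini-Hochberg over all 66184 probe sets) and its change was at least 2-fold. Values after ± are SEs of the limma fit, with n = 3 per group. By this rule 9.61% of all probe sets were called, 4.98% higher and 4.63% lower in drought. Of 34 genes in 5 lists, 4 were called higher and 3 lower, together 20.6% of them, and their median log2 difference was -0.25 against 0.02 over all probe sets. The methods' t-test called 4 of the 34 genes, against 6.59% of all probe sets. An unadjusted p under 0.05 in the limma fit, counted for some lists below, was found for 30.7% of all probe sets.

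Among 6 genes for the metabolism of glutamate, arginine and ornithine, from which proline can be made, none was called, against 9.61% of all probe sets. Of these genes, 1 had an unadjusted p under 0.05 (against 30.7% of all probe sets), and the methods' t-test called none. The gene with the smallest p was Glyma01g33750, similar to an arginase, which breaks arginine down to ornithine and urea, with a log2 difference of -0.42 ± 0.18 (limma, adjusted p = 0.138). Glyma01g41310, similar to the glutamate dehydrogenase gene GDH2, had a log2 difference of -0.04 ± 0.20 (limma, adjusted p = 0.927). Its drought values of -0.31 to 0.11 lay within the well-watered values of -0.35 to 0.18. The median log2 difference of the 6 genes was -0.04. The steps after P5CS and the breakdown of proline were not among the descriptions used here, and other soybean copies of P5CS were not analysed here.

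Of 5 other sugar transport genes 1 was called, against 9.61% of all probe sets, and the other transport genes did not share its direction throughout. Glyma01g36150, similar to TMT2, which loads hexoses into the vacuole, stood at 0.87, 1.57 and 1.27 in drought plants 11, 12 and 13 and at -1.63, -1.17 and -0.87 in well-watered plants 1, 3 and 4. The groups did not overlap, and drought plant 11 was again the lowest of its group. The gene rose by 2.46 ± 0.24 log2 units (limma, adjusted p = 8.87e-05), or 5.51-fold. The description rates it only moderately similar to TMT2, while both members are rated highly similar to their namesakes. Glyma01g09220, similar to STP1, a hexose-proton symporter of the same family as STP13, moved the other way. Its drought values were -0.38, -0.27 and -0.19 and its well-watered values 0.36, 0.34 and 0.19 in the same order of plants, without overlap. The log2 difference was -0.58 ± 0.16 (limma, adjusted p = 0.0278), below the 2-fold criterion. The remaining genes were not called, with log2 differences of 0.57 ± 0.21 for Glyma01g38040, similar to a putative mannitol transporter, 0.25 ± 0.24 for the putative sugar transporter Glyma01g34890 and -0.35 ± 0.21 for Glyma01g28460, similar to the plastid glucose-6-phosphate translocator GPT2.

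The list drawn up for the release and use of hexoses was made by description and holds genes whose namesakes do not act on hexoses directly, such as BAM3. It had 9 members with a median log2 difference of -0.30. Of these, 2 were called higher and 1 lower, against 4.98% and 4.63% of all probe sets. Glyma01g41990, similar to the vacuolar invertase gene VAC-INV, whose product splits sucrose into glucose and fructose, rose by 1.66 ± 0.25 log2 units (limma, adjusted p = 0.00104), or 3.16-fold. Its drought values were 0.45, 1.14 and 1.13 in plants 11, 12 and 13, above all well-watered values, the highest of which was -0.45. Glyma01g41190, similar to BAM3, a beta-amylase of the chloroplast that frees maltose from starch, rose by 1.62 ± 0.23 (limma, adjusted p = 0.000893). Here drought plant 11 was the highest, at 1.49 against 0.55 and 0.83 for plants 12 and 13, the reverse of their order for the P5CS1-like gene. Another gene listed by its likeness to the beta-amylase family, Glyma01g35500, similar to BAM8, had a log2 difference of -0.63 ± 0.20 (limma, adjusted p = 0.0476), below the 2-fold criterion. Whether its product acts on starch was not tested. The hexokinase relatives Glyma01g01060 and Glyma01g01070, both similar to HXK1, which phosphorylates hexoses, had log2 differences of -0.51 ± 0.21 and -0.06 ± 0.26 and were not called. Glyma01g26990, of the pfkB-type carbohydrate kinases, fell by 1.13 ± 0.24 (limma, adjusted p = 0.00809). Its call was lost, at -0.93, when well-watered plant 3 was left out, when drought plant 12 was left out, at -0.997, and with the methods' t-test.

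**Figure D2:**
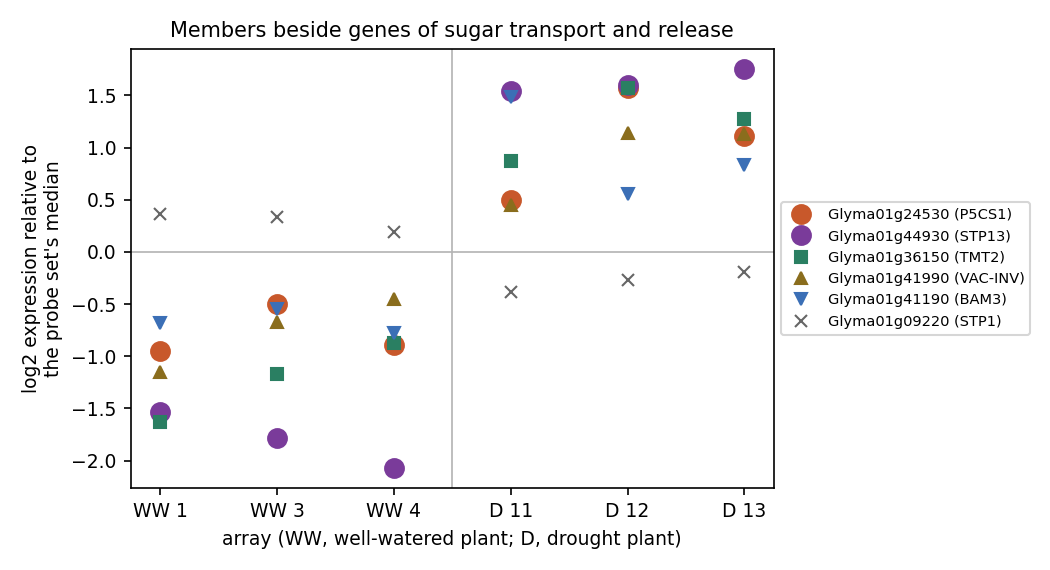
Log2 expression relative to the probe set's median (y axis) in each of the 6 arrays (x axis) for the members and for 4 genes of sugar transport and release. The relatives of TMT2, VAC-INV and BAM3 were higher in all drought plants, while the STP1 relative lay between 0.19 and 0.36 in well-watered and between -0.38 and -0.19 in drought plants.

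None of 6 amino acid transporter genes, a group that includes carriers of proline in other plants, was called, against 9.61% of all probe sets. Of these genes, 3 had an unadjusted p under 0.05 (against 30.7% of all probe sets), and the methods' t-test called none. The largest difference was that of Glyma01g21510, similar to a lysine and histidine transporter, at -0.99 ± 0.18 on the log2 scale (limma, adjusted p = 0.00335), just under 2-fold. With so narrow a margin, the absence of a call for this gene can depend on the array scaling. The median of the list was -0.32.

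The 8 genes for water channels and proteins tied to dehydration had a median log2 difference of -0.42. Of these, 1 was called higher and 2 lower, against 4.98% and 4.63% of all probe sets. Glyma01g36960, similar to the dehydration-induced gene ERD7, rose by 1.35 ± 0.23 log2 units (limma, adjusted p = 0.00249), with drought plant 11 the lowest of its group at 0.29 against 0.95 and 0.84. Glyma01g01360, described as related to early-responsive-to-dehydration proteins, fell by 2.44 ± 0.18 (limma, adjusted p = 1.53e-05). Glyma01g42670, similar to the osmotin gene OSM34, fell by 1.15 ± 0.25 (limma, adjusted p = 0.0097), and its value of 1.36 in well-watered plant 1 stood well above those of plants 3 and 4, at 0.49 and 0.34. Without well-watered plant 1 its log2 difference was -0.83 and it was no longer called, nor was it with array weights, at -0.88. The other OSM34 relative, Glyma01g42660, had a log2 difference of 0.19 ± 0.22 (limma, adjusted p = 0.651) and was not called. The methods' t-test called neither the ERD7 relative nor either OSM34 relative. The aquaporin relatives of PIP1B and PIP1;4, which let water through the plasma membrane, had log2 differences of -0.35 ± 0.20 and -0.14 ± 0.17 and were not called, nor was either relative of the abscisic acid-activated kinase OST1.

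**Figure D3:**
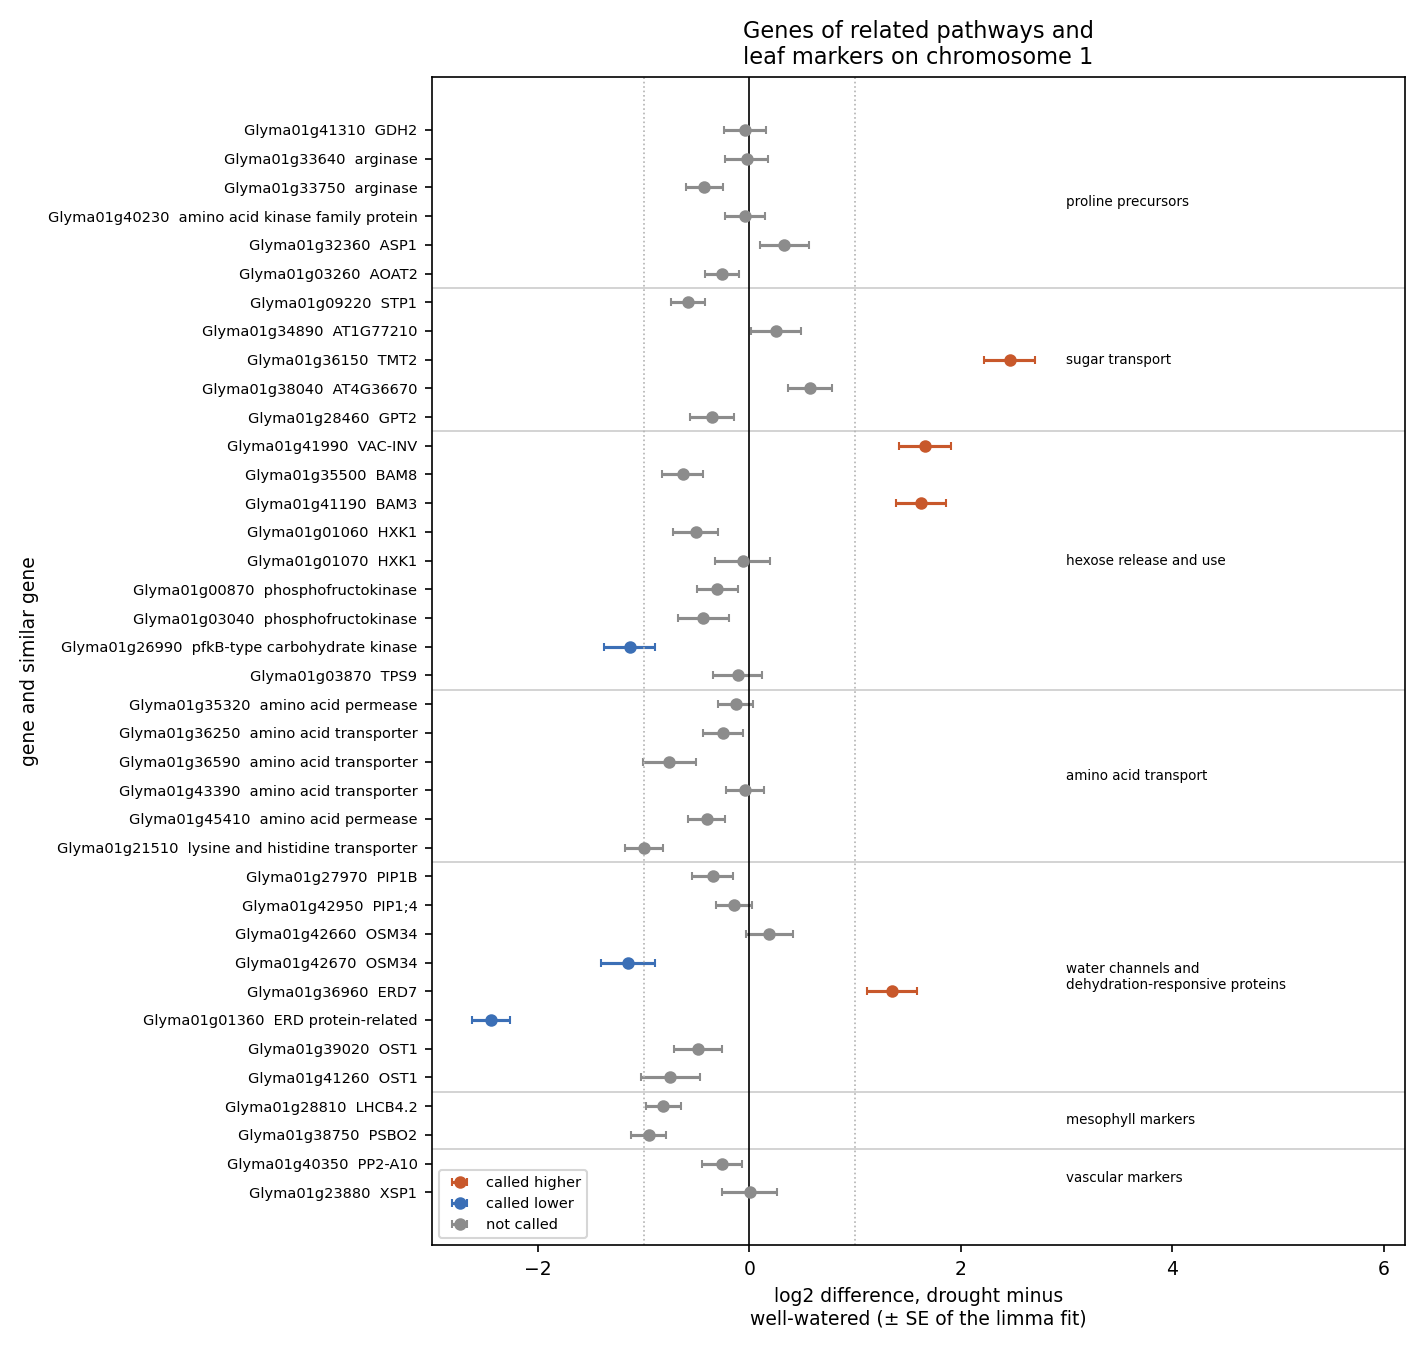
Log2 difference between drought and well-watered leaves (x axis, ± SE of the limma fit, n = 3 per group) for 34 genes of related pathways and 4 leaf markers, with dotted lines at 2-fold. The members are not shown. Of the 34 pathway genes 4 were called higher and 3 lower, against 4.98% and 4.63% of all probe sets.

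To describe the tissue, 2 mesophyll and 2 vascular markers were read. Both mesophyll markers were lower in drought without reaching 2-fold. They are photosynthesis genes, a class of which the paper reports many as lowered by drought at this stage. Their values therefore cannot tell a change in cell makeup from such a response. Glyma01g28810, similar to the light-harvesting gene LHCB4.2, had a log2 difference of -0.81 ± 0.17 (limma, adjusted p = 0.00647), with values of -0.52 to -0.29 in drought and 0.29 to 0.58 in well-watered plants. Glyma01g38750, similar to the photosystem II gene PSBO2, had a log2 difference of -0.95 ± 0.16 (limma, adjusted p = 0.00254). The vascular markers, similar to the phloem protein gene PP2-A10 and the xylem peptidase gene XSP1, had log2 differences of -0.26 ± 0.19 and 0.00 ± 0.26 (limma, adjusted p = 0.418 and adjusted p = 0.995). Since the values are centred, they do not show whether any marker was well expressed, and the part of a change in cell makeup in the differences of the members was not tested.

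None of the genes next to the members by identifier was called. Over all probe sets 9.61% were called, so an absence of calls among so few genes sets neither member apart. The members themselves were chosen by their change. Glyma1 numbers genes along the chromosome, and of the 5 nearest array identifiers on either side of the P5CS1-like gene none was called (limma, with 3 of 10 at an unadjusted p under 0.05, against 30.7% of all probe sets, and none called by the methods' t-test). Their log2 differences ran from -0.87 to 0.56. The neighbour with the smallest p was Glyma01g24490, at -0.87 ± 0.19 (limma, adjusted p = 0.00936), 3 steps before the P5CS1-like gene. Of the 10 nearest identifiers of the STP13-like gene none was called either (limma, with 2 at an unadjusted p under 0.05 and none called by the methods' t-test). Their log2 differences ran from 0.06 to 0.69, with the smallest p for Glyma01g44880, at 0.69 ± 0.16 (limma, adjusted p = 0.014).

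**Figure D4:**
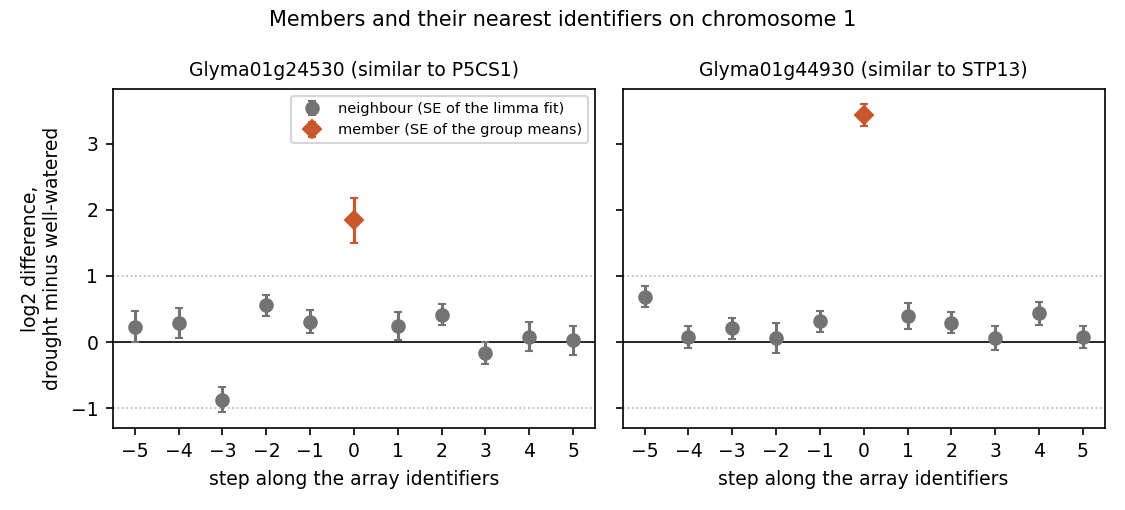
Log2 difference between drought and well-watered leaves (y axis) of each member and of the 5 nearest array identifiers on either side (x axis, steps along the identifiers), with SE bars. All 20 neighbours lay within 2-fold of no change, marked by dotted lines. The members, which were chosen by this difference, stood at 1.84 and 3.42.

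Genes whose 6 values lay nearest were sought for each member. Likeness was measured as the root mean square difference over the 6 arrays, on the log2 scale. Because this measure keeps the size of a change, members with unlike differences between the groups have unlike nearest genes by construction. The nearest of all probe sets to the P5CS1-like gene was Glyma17g12540, at 0.14, with a log2 difference between the groups of 2.01. The study's description tables, as at hand, cover 1974 genes of the array, 1850 of them on chromosome 1. They include its list of hormone-related genes that changed at least 2-fold in drought-stressed late vegetative leaves. The pool was thus in part chosen by a change in drought, and a likeness to such a hormone-related gene is partly built in. Among the genes of these tables the nearest to the P5CS1-like gene were Glyma01g04250, similar to the glucosyltransferase gene UGT74B1, at 0.19, Glyma01g29580, of the leucine-rich repeat family, also at 0.19, and Glyma01g02820, whose entry holds no description, at 0.25. The nearest of all probe sets to the STP13-like gene was Glyma13g32090, at 0.13, with a log2 difference between the groups of 3.47. Among the genes of these tables the nearest were Glyma06g04350, weakly similar to the abscisic acid-responsive transcription factor gene ABF2, at 0.19, Glyma01g42840, similar to the glutathione peroxidase gene GPX6, which removes peroxides, also at 0.19, and Glyma01g07390, weakly similar to AT1G13740, at 0.26. Within 0.25 of the P5CS1-like gene there were 39 probe sets, and within 0.25 of the STP13-like gene there were 24. The members themselves lay 0.90 apart by the same measure, so that neither was among the genes nearest to the other. Their Pearson correlation over the 6 arrays was 0.94, which includes the group difference by which both were chosen.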

How the data were processed

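Affymetrix Soybean Gene 1.0 ST arrays of 3 well-watered and 3 drought plants were analysed. The authors ran RMA in Affymetrix Expression Console (versions not given in the sources used here) for gene-level summaries, not normalized at that step, and shifted the log2 values of each array to the 75th percentile in GeneSpring. The deposited log2 values are besides centred on the median of each probe set, as read from the values, so absolute signal and signal over background are not known, and the small number of arrays limits precision. The deposited table of fold changes and p-values holds the authors' own comparison and was used for gene identifiers only. No identifier matched the 59048 genes of the RefSeq table, so names are those of the study's descriptions. No sequences are shown.

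Values were used as deposited, and limma 3.58.1 (R 4.3.3) was fitted by lmFit and eBayes on treatment alone, which was tested on simulated data. Members, lists and tests were chosen with earlier results of these data known. Genes named by rule were the members, every called list gene (in a list without calls, the one with the smallest p), the neighbour with the smallest p and, per member, the nearest probe set and the 3 nearest genes entered in the study's description tables. Other list genes were named after their values were seen. Alternatives were other array scalings, leaving out each array, array weights, no fold criterion and the methods' t-test.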

Additional observations from a re-analysis of the deposited data

How the results depend on the processing

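The difference of the P5CS1-like gene Glyma01g24530 ranged from 1.58 to 2.12 on the log2 scale when each array was left out in turn, the lowest without drought plant 12 and the highest without drought plant 11, and from 1.75 to 1.96 under the other scalings and array weights. That of the STP13-like gene Glyma01g44930 ranged from 3.29 to 3.55 without single arrays and from 3.41 to 3.62 under median and 75th percentile scaling and array weights, and was 3.20 with quantile normalization, which moved it by more than its SD within groups. The array weights were 3.96 for well-watered plant 4 but 0.48 and 0.34 for well-watered plants 1 and 3. In the weighted fit the well-watered mean therefore rested mostly on plant 4. Over all probe sets 5911 to 6760 were called without single arrays, against 6360 with all, 4360 by the methods' t-test and 13172 without the fold criterion. Of the 34 pathway genes 7 were called with all arrays, 6 to 8 without single arrays and 4 by the methods' t-test. With array medians subtracted 8 were called, with 75th percentile scaling 7 and with quantile normalization 8. With array weights 6 were called, and without the fold criterion 10. For the 7 called pathway genes 70 of 77 values under the alternatives stayed past the threshold, 7 did not and none was reversed. No paired analysis was possible because no plant number occurs in both groups. The filter on dim probe sets and the intensity trend were not run, since the values hold no absolute level.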
